A study of Arabidopsis thaliana with 4 samples.

Results

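The genes described here are 9 loci of root hair development out of 23695 loci with any read. They comprise 3 bHLH transcription factors (RHD6, RSL2 and RSL4), 4 structural cell wall proteins (LRX1, LRX2, PRP1 and PRP3) and 2 proteins of tip growth (COW1 and RHD2). They were picked as higher with the synthetic auxin naphthalene acetic acid (NAA) in both genotypes of the study. They were thus chosen by their NAA to mock differences in these same libraries. The NAA values of these genes are therefore given as a description and no support is drawn from them. In the libraries 8 of the 9 had more reads with NAA than in mock in both genotypes. RHD2 went against the description, with fewer reads with NAA in arf7.

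RNA came from hypocotyls of Arabidopsis thaliana seedlings kept 4 days in darkness on MS medium. The wild type Col-0 was compared with an arf7 T-DNA mutant, which carries an insertion in the gene of the auxin response factor ARF7. Each genotype was grown without added auxin (mock) or with 500 nM NAA, which gave 4 groups with 1 library each. Where 4 values follow each other without labels, they stand in the order Col-0 without and with NAA, then arf7 without and with it. The insertion allele, the number of seedlings behind each RNA sample and the place where the hypocotyl was cut from the root are not given in the sources used here. With 1 library for each group there is no replicate check, and the ranges in parentheses are 95% counting intervals, which do not cover variation among plants.

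Root hairs are tubular outgrowths of single epidermal cells, borne by the root and by the collet, the junction of root and hypocotyl. RHD6 acts with its relative RSL1 at the start of hair development and switches on RSL2 and RSL4, and the amount of RSL4 sets how far a hair grows. Auxin lengthens root hairs and raises RSL4 in roots. LRX1 and LRX2 are leucine-rich repeat extensins that anchor in the growing hair wall, and PRP1 and PRP3 are proline-rich proteins of that wall. COW1 is a phosphatidylinositol transfer protein that places and shapes the growing tip, and RHD2 (also called RBOHC) is an NADPH oxidase whose reactive oxygen species keep the tip growing.

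The libraries held between 7.0e+06 and 7.4e+06 reads. ARF7 itself had 8 reads in Col-0 mock and 8 with NAA, and 3 and 1 in arf7, fewer in the mutant but too few to check the labels closely. For loci with 1 listed transcript model, reads covered a median of 70.73% of the model, against 5.37% for models of loci with more. Low counts of ARF7 or of the related genes listed below are therefore not read as little RNA. Each of the genes described here had 1 listed model. The Col-0 NAA library stood apart from the rest, since its Spearman rank correlations with the other libraries over all loci were 0.847 to 0.881, against 0.968 to 0.981 among those. Every comparison below that uses Col-0 NAA rests on that library, while the arf7 NAA against arf7 mock values use reads of the arf7 libraries alone. Col-0 NAA still took part in the scaling and in the mean level by which loci entered that comparison. KNAT1, a marker of hypocotyl and stem, was present throughout, with 1387 and 1493 reads in Col-0 and 1586 and 1940 in arf7, mock first. Markers of root tip, root cap and endodermis also varied between the libraries, and their values are given with the genotype comparison and after the gene lists.

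The 250 bases upstream of LRX1, PRP1 and PRP3 are shown because each holds a root hair element, a short sequence found upstream of many root hair genes. They were read 5′ to 3′ on the gene's strand from the RefSeq TAIR10.1 genome, ending just before the outermost annotated start. The window of LRX1 lies at chr1:4069742-4069991, that of PRP1 at chr1:20504651-20504900 and that of PRP3 at chr3:23182472-23182721, all on the forward strand. Capitals mark the element, which matched on the opposite strand in each.
LRX1: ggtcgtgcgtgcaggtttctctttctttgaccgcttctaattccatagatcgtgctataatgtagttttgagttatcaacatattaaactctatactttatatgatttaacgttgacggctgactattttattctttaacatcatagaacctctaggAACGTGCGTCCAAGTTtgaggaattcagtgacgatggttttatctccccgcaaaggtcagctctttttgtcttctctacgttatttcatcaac
PRP1: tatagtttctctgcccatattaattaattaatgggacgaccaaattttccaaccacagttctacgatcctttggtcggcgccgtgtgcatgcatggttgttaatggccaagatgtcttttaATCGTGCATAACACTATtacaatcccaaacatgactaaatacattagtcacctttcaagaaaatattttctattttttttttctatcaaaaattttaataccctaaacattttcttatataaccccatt
PRP3: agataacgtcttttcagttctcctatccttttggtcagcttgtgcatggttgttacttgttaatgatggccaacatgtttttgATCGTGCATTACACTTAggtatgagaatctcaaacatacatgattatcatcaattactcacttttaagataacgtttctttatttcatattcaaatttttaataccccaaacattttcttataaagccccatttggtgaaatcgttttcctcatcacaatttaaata
The window of LRX2, at chr1:23111568-23111817 on the forward strand, is shown beside them because LRX2 is the closest relative of LRX1 here and held no match.
LRX2: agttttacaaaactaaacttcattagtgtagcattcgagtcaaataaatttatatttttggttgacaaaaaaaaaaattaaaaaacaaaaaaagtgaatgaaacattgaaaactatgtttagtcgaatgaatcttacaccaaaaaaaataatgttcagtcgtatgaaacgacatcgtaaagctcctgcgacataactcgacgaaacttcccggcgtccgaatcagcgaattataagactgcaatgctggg

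The element lay 93 to 78 bases before the start of LRX1, 129 to 113 before that of PRP1 and 167 to 151 before that of PRP3. It was found in the windows of 3 of the 9 genes and in 123 of 17224 windows of the loci compared below, or 0.714%. The element is known from root hair genes and the 9 were picked as such, so nothing is read from the count of 3. The windows of PRP1 and PRP3 resembled each other beyond the element, with 166 identical aligned bases, 66.4% of the window length, against at most 53.2% for 3 other pairs among the 4 windows shown. Those matches in PRP1 and PRP3 are thus not independent of each other. Other motifs were searched on both strands of the 9 windows. The auxin response elements TGTCTC and TGTCGG were in 0 of the 9, against 10.6% and 4.64% of all windows. The G-box CACGTG was in 0 of the 9 against 7.29%, and the E-box CANNTG, which includes the G-box, in 4 of the 9 against 56.1%. A match is a run of letters in the window, and no binding was measured.

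Of 20 other root hair genes, called wall genes here though not all encode wall proteins, 5 held the root hair element in the same window. Their sites are printed with those of LRX1, PRP1 and PRP3 to show how the matches vary. Each site is written in the direction of the element, and capitals mark its fixed letters. The search asked for those letters, so every site shares them. The 20 genes were chosen as root hair genes, and nothing is read from the count of 5.
LRX1: aactTGgacgCACGtt
PRP1: atagTGttatgCACGat
PRP3: taagTGtaatgCACGat
EXPA7: atagTGatccgCACGta
EXPA18: aacaTGaacgCACGtc
RHS13: ataaTGcgactCACGtc
RHS15: tttgTGcccgCACGta
RHS18: tccaTGaacgCACGtt
The sites have 16 or 17 bases, since the spacer between the fixed parts may vary by 1. Those of PRP1 and PRP3 end in CACGat, which no other site shown does.

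Levels of the genes are given as read counts and as CPM, that is counts scaled to a common library size with the TMM method. A pair of libraries was taken to differ where the fold was at least 2 and its counting interval excluded 1, and loci entered the comparisons if their mean reached 1 CPM. RSL2 and RSL4 fell below that level, so 7 of the 9 genes were compared. Of those 7, only LRX2 and RHD2 reached 1 CPM in both mock libraries. The other 5 passed through the NAA libraries, in which they were high.

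**Figure D1:**
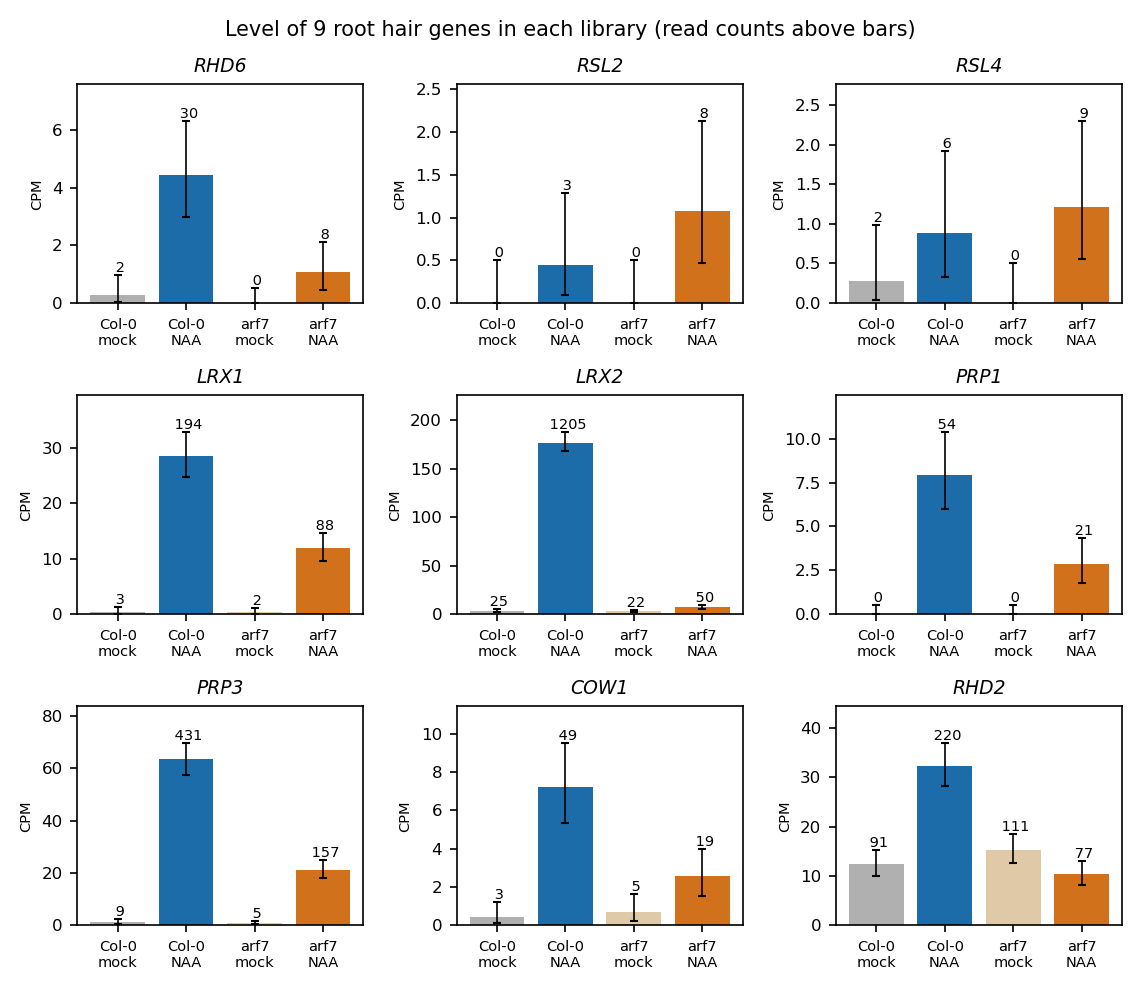
Level of each of the 9 genes in each library, as bars of CPM with exact 95% Poisson counting intervals and the read count above each bar; each panel has its own axis, which starts at 0. In all panels but those of RSL2 and RSL4 the Col-0 NAA bar is the highest, and in RHD2 the arf7 NAA bar is the lowest.

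The transcription factors were scarce in every library. RHD6 (AT1G66470, chromosome 1, 24795214 to 24796988, forward strand, TAIR10) had 2 reads in Col-0 mock and 30 with NAA, and 0 and 8 in arf7. These were 0.272, 4.42, 0 and 1.08 CPM, so that the gene was at or near the limit of counting in mock and highest in Col-0 NAA. The NAA to mock ratio was 16.2 in Col-0 (4.12 to 140). In arf7 RHD6 was at least 2.61-fold higher with NAA, where a count of 0 is set to a floor of 3 reads and the counting error of the other library is left out.

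RSL2 (AT4G33880, chromosome 4, 16239363 to 16241137, reverse strand), one of the factors that RHD6 switches on, had 0 reads in Col-0 mock and 3 with NAA, and 0 and 8 in arf7. It was seen in the NAA libraries alone, and its Col-0 count was no higher than the floor, so no Col-0 fold is given. RSL4 (AT1G27740, chromosome 1, 9654688 to 9656089, forward strand), the factor that sets hair length, had 2 reads in Col-0 mock and 6 with NAA, and 0 and 9 in arf7. Its Col-0 ratio of 3.24 had an interval that spanned 1 (0.580 to 32.9). In arf7 it was at least 2.93-fold higher with NAA and RSL2 at least 2.61-fold, both below the level at which loci were compared. The floor of 3 reads equals 0.409 CPM in Col-0 mock and 0.414 CPM in arf7 mock, and the 95% Poisson interval of a count of 0 reaches 0.502 and 0.509 CPM there.

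The wall proteins had most of the reads of the group with NAA. LRX1 (AT1G12040, chromosome 1, 4070124 to 4072567, forward strand) had 3 reads in Col-0 mock and 194 with NAA, and 2 and 88 in arf7. Both NAA libraries stood far above both mock libraries. The NAA to mock ratio was 69.9 in Col-0 (23.6 to 342) and 43.0 in arf7 (11.6 to 361). Reads covered 93.4% of the LRX1 model in Col-0 NAA and 79.8% in arf7 NAA, so they were spread along the transcript.

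LRX2 (AT1G62440, chromosome 1, 23111818 to 23115293, forward strand), which acts together with LRX1, had 25 reads in Col-0 mock and 1205 with NAA, and 22 and 50 in arf7. Its level in Col-0 NAA, 177 CPM, was far above the others, which lay between 3.04 and 6.74 CPM. LRX2 was 52.1-fold higher with NAA in Col-0 (35.1 to 80.9) and 2.22-fold higher in arf7 (1.32 to 3.85). In arf7 it was the gene of the group that lay nearest above the fold asked for. LRX1 and LRX2 share no stretch of 50 bases in their gene spans, so exact matches of that length can tell them apart. Shorter matches and matches with mismatches were not examined.

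PRP3 (AT3G62680, chromosome 3, 23182722 to 23183994, forward strand), a proline-rich protein of the hair wall, had 9 reads in Col-0 mock and 431 with NAA, and 5 and 157 in arf7. Its level with NAA was 63.5 CPM in Col-0 and 21.2 CPM in arf7, against 1.23 and 0.690 CPM in mock. PRP3 was 51.8-fold higher with NAA in Col-0 (27.0 to 114) and 30.7-fold higher in arf7 (12.9 to 95.8). Its relative PRP1 (AT1G54970, chromosome 1, 20505000 to 20506488, forward strand) had 0 reads in Col-0 mock and 54 with NAA, and 0 and 21 in arf7. PRP1 was thus counted only with NAA, at least 19.5-fold higher in Col-0 and at least 6.84-fold higher in arf7. PRP1 and PRP3 also share no stretch of 50 bases.

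The tip growth genes split. COW1 (AT4G34580, chromosome 4, 16515327 to 16519534, forward strand), the phosphatidylinositol transfer protein, had 3 reads in Col-0 mock and 49 with NAA, and 5 and 19 in arf7. Both NAA libraries were above both mock libraries, with a ratio of 17.7 in Col-0 (5.70 to 88.6) and a 3.71-fold higher level in arf7 (1.34 to 12.7). RHD2 (AT5G51060, chromosome 5, 20757284 to 20762431, reverse strand), the NADPH oxidase, had 91 reads in Col-0 mock and 220 with NAA, and 111 and 77 in arf7. It was the gene of the group with the most reads in both mock libraries and was lowest in arf7 NAA. RHD2 was 2.61-fold higher with NAA in Col-0 (2.04 to 3.37) and 1.48-fold lower with NAA in arf7 (1.09 to 2.00), short of the fold asked for.

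In Col-0, 7 of the 7 genes compared were higher with NAA, where 15.2% of all loci compared were, of the 28.2% that differed in either direction. In arf7 6 of the 7 were higher, where 3.91% of all loci were higher and 4.33% lower, 8.23% in all. Across all loci compared 2.32% were higher in both genotypes. The median log2 fold of the 7 was 5.62 in Col-0 and 4.05 in arf7, or 4.28 and 1.79 with counts of 0 set at their bound, beside -0.01 and 0.0 over all loci. The genes were chosen for these differences, so nothing is read from those counts.

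Levels of different genes were compared per length, as the deposited RPKM (reads scaled to the length of the transcript model and to the library total). In Col-0 NAA the order of RPKM was LRX2 at 67.7, PRP3 at 51.2, LRX1 at 11.1, RHD2 at 9.66, PRP1 at 5.98, RHD6 at 2.99, COW1 at 2.47, RSL4 at 0.743 and RSL2 at 0.310. Neighbours in that order differed beyond counting error except LRX1 and RHD2, RHD6 and COW1, and RSL4 and RSL2. The wall proteins LRX2 and PRP3 thus led, and the transcription factors that act above them stood low.

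In arf7 NAA the order of RPKM began with PRP3 at 18.6, followed by LRX1 at 5.0, and both differed from their next neighbour beyond counting error. The rest ran from RHD2 at 3.37 and LRX2 at 2.80 over PRP1 at 2.32, RSL4 at 1.11, COW1 at 0.953 and RSL2 at 0.825 to RHD6 at 0.794, and no neighbours among these differed beyond counting error. LRX2 was thus first in Col-0 NAA and below PRP3, LRX1 and RHD2 in arf7 NAA. In mock RHD2 came first, with 3.87 RPKM in Col-0 and 5.0 in arf7, and was apart from LRX2, at 1.36 and 1.27. Among the genes below LRX2 in mock, no neighbours differed beyond counting error.

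The genotypes were then compared within each treatment, a contrast that the choice of genes did not use, to ask how the genes stood without ARF7. In mock, 0 of the 7 genes compared met the fold and interval asked for between arf7 and Col-0, where 2.33% of all loci were higher and 2.30% lower in arf7. RHD2 was 1.24-fold higher in arf7 (0.929 to 1.65) and LRX2 1.12-fold lower (0.607 to 2.09), and these were the genes with the most mock reads. The interval of RHD2 stayed below a fold of 2, and that of LRX2 included it. PRP3, at 9 and 5 reads, was 1.78-fold lower (0.534 to 6.75). With so few reads a difference of several fold in the other genes was not detectable at this depth.

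With NAA, 7 of the 7 genes compared were lower in arf7 than in Col-0, where 14.1% of all loci compared were lower and 10.8% higher. The difference was 26.3-fold in LRX2 (19.8 to 35.6), with 50 reads in arf7 against 1205 in Col-0. RHD6 was 4.09-fold lower (1.83 to 10.3), from 30 to 8 reads. The others lay close together, with RHD2 3.12-fold lower (2.40 to 4.10), PRP3 3.0-fold (2.49 to 3.62), COW1 2.82-fold (1.63 to 5.06), PRP1 2.81-fold (1.67 to 4.89) and LRX1 2.41-fold (1.86 to 3.13). The median over the 7 was -1.58 on the log2 scale, beside 0.01 over all loci. Because 5 of the 7 were compared only through their NAA libraries and were chosen as high there, the count of 7 is itself no independent support. In the same contrast 4 of the 4 root tip and root cap markers compared were lower in arf7, with a median of -2.3 on the log2 scale, and so were 5 of the 8 endodermis markers, with a median of -4.21. Of the 4 root tip and root cap markers 3 did not reach 1 CPM in both mock libraries. Those 3 were compared through their NAA libraries, so the count of 4 is no independent support either. The part of these tissues in the difference was not tested. In whole hypocotyls fewer cells that express a gene and less of its RNA per cell cannot be told apart.

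The scarce factors downstream of RHD6 had too few reads to tell whether they followed. RSL2 had 8 reads in arf7 NAA against 3 in Col-0 NAA, a ratio of 2.44 (0.586 to 14.3). RSL4 had 9 against 6, a ratio of 1.37 (0.437 to 4.69). Both intervals spanned 1, so neither a lower nor a higher level in arf7 was detectable for these genes at this depth.

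**Figure D2:**
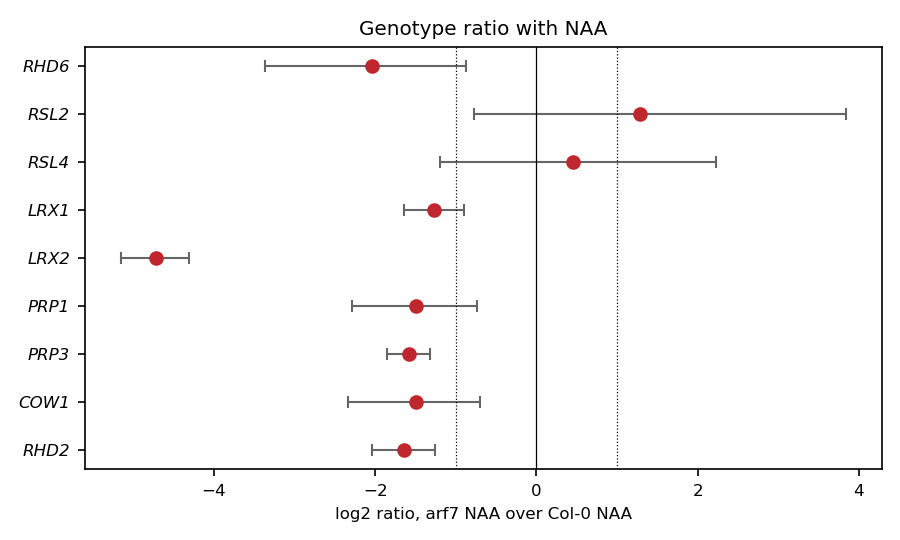
Difference between arf7 NAA and Col-0 NAA for the 9 genes on the log2 scale (points) with 95% counting intervals (bars); dotted lines mark a fold of 2 in either direction. LRX2 lies farthest to the lower side at -4.7, 6 genes lie between -1.97 and -1.26, and the intervals of RSL2 and RSL4 span 0.

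The same libraries were also read without any scaling between them, by setting the reads of each gene against those of PRP3 in the same library. PRP3 was chosen for this after its values were seen. LRX1 had 45.0% of the PRP3 reads in Col-0 NAA and 56.1% in arf7 NAA, PRP1 12.5% and 13.4%, COW1 11.4% and 12.1%, RHD2 51.0% and 49.0%, and RHD6 6.96% and 5.10%. For these 5 genes the counting interval of the change in proportion included 0, and it was narrowest for LRX1 (log2 difference 0.32, -0.13 to 0.77) and RHD2 (-0.05, -0.51 to 0.4). A change within those bounds is not excluded by the counts. LRX2 went from 280% of the PRP3 reads in Col-0 NAA to 31.8% in arf7 NAA, a log2 difference of -3.12 (-3.61 to -2.64). The proportions of RSL2 and RSL4 were higher in arf7 NAA, at 5.10% against 0.696% and 5.73% against 1.39%. Their log2 differences were 2.73 (0.92 to 4.55) and 2.0 (0.54 to 3.46), from at most 9 reads each. PRP3 itself was 3.0-fold lower in arf7 NAA, so a gene at an equal level in both libraries rises against it. KNAT1, for example, rose by 1.83 (1.55 to 2.11) on this scale and was 1.19-fold higher when compared directly. These proportions thus do not show a higher level of RSL2 or RSL4 in arf7, and their direct ratios had intervals that spanned 1.

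The NAA responses of the genotypes were compared as a difference of log2 folds, arf7 minus Col-0. The arf7 response counted as weaker where the gene differed with NAA in Col-0 and the log2 difference went against that response by at least 1 with an interval that excluded 0. By that rule 3 of the 7 genes were weaker and 0 stronger, beside 18.8% weaker and 2.44% stronger among all loci compared. Since the rule asks for a difference with NAA in Col-0, for which the genes were chosen, the shares are not comparable and nothing is read from the count. LRX2 differed most, with a log2 response of 5.68 in Col-0 and 1.13 in arf7, a difference of -4.54 (-5.46 to -3.63). RHD2 had a log2 response of 1.38 in Col-0 and -0.56 in arf7, a difference of -1.94 (-2.49 to -1.39). COW1 had a difference of -2.14 with a wide interval that came close to 0 (-4.22 to -0.07).

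The responses of LRX1 and PRP3 stayed large in arf7. Their log2 differences were -0.8 (-3.17 to 1.57) and -0.81 (-2.35 to 0.73), within the counting error that the few mock reads allow. For RHD6, PRP1, RSL2 and RSL4, with 0 reads in arf7 mock, the intervals spanned at least from -1.89 to 4.21 and no difference was detectable. The response difference is built from the same NAA and mock values by which the genes were chosen, so its values are given as a description.

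**Figure D3:**
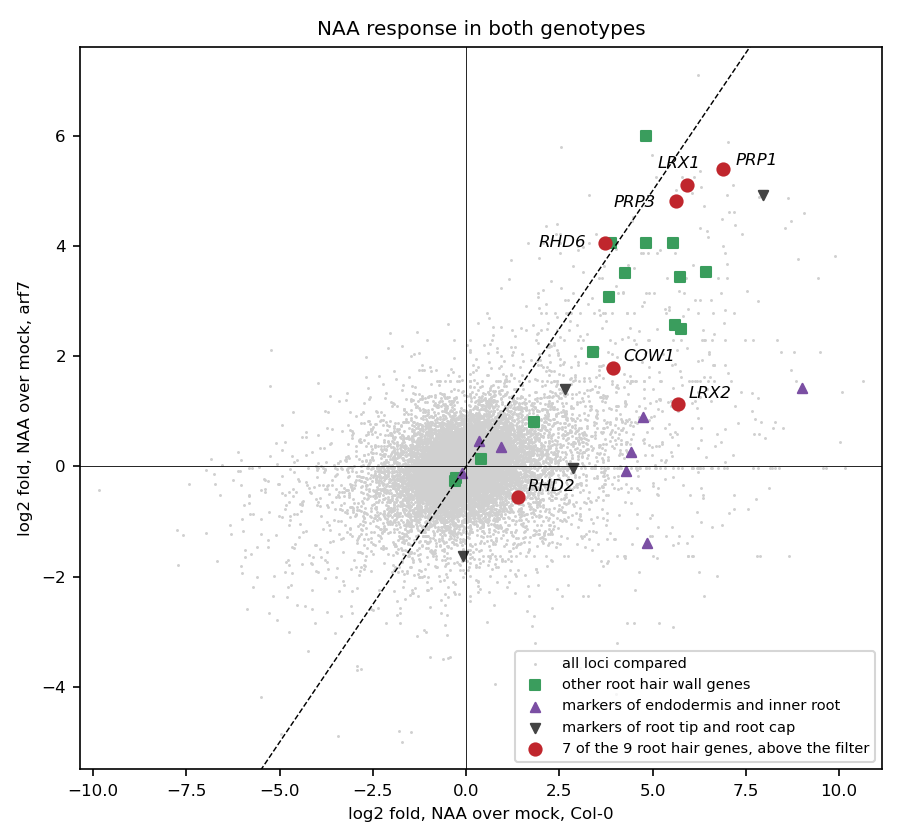
Log2 response to NAA in Col-0 (horizontal axis) and in arf7 (vertical axis) of all loci compared (grey), the 7 genes compared (red, named), other root hair wall genes (green squares), endodermis markers (purple triangles) and root tip and root cap markers (dark triangles); the dashed line marks equal responses. LRX1, PRP1, PRP3 and RHD6 lie high on both axes, while LRX2 lies with 5.68 and 1.13 far below the line.

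Related genes were read from lists chosen with results of these libraries known. Among 6 bHLH relatives of the RSL and LRL families 3 were compared. LRL3, a bHLH factor of root hair growth, had 1 read in Col-0 mock and 24 with NAA, and 1 and 18 in arf7. It was high with NAA in both genotypes, with ratios of 25.9 (4.23 to 1067) and 17.6 (2.78 to 733). LRL1 was 2.32-fold higher with NAA in Col-0 alone (2.04 to 2.65), and its relative LRL2 met no fold asked for. RSL1, the partner of RHD6, had 1 read in all, in Col-0 NAA.

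Of 10 genes of epidermal patterning 6 were compared, and 2 were higher with NAA in Col-0, 0 higher and 1 lower in arf7. ETC1, a small MYB protein that favours hair fate, had 5 reads in Col-0 mock and 41 with NAA, and 8 and 4 in arf7. GL3, a bHLH factor of the patterning complex, was 3.92-fold higher with NAA in Col-0 (1.75 to 9.92) and 2.79-fold lower in arf7 (1.36 to 6.17). WER and GL2, which mark the hairless files of the epidermis, were below the level compared. WER had 1 and 12 reads in mock and NAA of Col-0 and 1 and 13 in those of arf7, and GL2 had 1, 4, 2 and 1 in the same order.

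Of 10 regulators known to act on RSL genes or on auxin supply to hairs 8 were compared. With NAA 3 were higher and 1 lower in Col-0, and 2 higher and 1 lower in arf7. GTL1, a trihelix factor that restrains RSL4 and hair growth, was 4.49-fold higher in Col-0 (4.03 to 5.01) and 3.48-fold higher in arf7 (2.96 to 4.11). OBP4, a DOF factor that restrains RSL2, was 3.47-fold (2.90 to 4.18) and 2.04-fold higher (1.65 to 2.53). ZFP5, a zinc finger protein that promotes hairs, was 2.37-fold lower in Col-0 (1.76 to 3.23) and 3.32-fold lower in arf7 (2.40 to 4.65). TAA1, an enzyme of auxin synthesis, was 7.06-fold higher in Col-0 (4.85 to 10.6) and had 42 and 67 reads in arf7 mock and arf7 NAA. ARF19, the closest relative of ARF7, had 660 and 702 reads in Col-0 and 643 and 709 in arf7, mock first, and met no fold asked for.

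The 5 relatives of the wall proteins all reached 1 CPM in both mock libraries, as LRX2 did and LRX1, PRP1 and PRP3 did not. PRP2 had 184 reads in Col-0 mock and 20816 with NAA, and 175 and 190 in arf7. It was high in 1 library only, 122-fold over mock in Col-0 (106 to 142) and 1.06-fold in arf7 (0.859 to 1.31). PRP4 had 9586, 38473, 9666 and 9708 reads in the same order and was 4.34-fold higher with NAA in Col-0 (4.24 to 4.44). AT4G18670, annotated as a leucine-rich repeat family protein, was 3.51-fold higher in Col-0 (3.26 to 3.77) and 1.28-fold in arf7 (1.16 to 1.40). LRX3 stayed within 1.08-fold of its mock level in both genotypes. Of these 5 relatives 3 were higher with NAA in Col-0, 0 differed in arf7 and 3 had a weaker response there. LRX2 resembled PRP2 in being high mainly in Col-0 NAA, whereas LRX1, PRP1 and PRP3 were also high in arf7 NAA.

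Of the 20 other root hair genes called wall genes 15 were compared. Of these 12 were higher with NAA in Col-0 and 9 in arf7, with 0 lower in either. The median log2 fold of the 15 was 4.26 in Col-0 and 3.07 in arf7, or 3.89 and 2.08 with counts of 0 set at their bound. Of the 15, only 4 reached 1 CPM in both mock libraries, and of those 4 only RHS10 was higher with NAA, in Col-0. AGP3, an arabinogalactan protein, had 3 reads in Col-0 mock and 175 with NAA, and 7 and 43 in arf7. XTH14, a xyloglucan-modifying enzyme, had 2, 200, 3 and 41 reads and RHS19, a peroxidase, 3, 151, 3 and 59 in that order. COBL9, which orients the hair wall, had 1, 26, 1 and 17. These genes had the same order of libraries as LRX1 and PRP3, with Col-0 NAA first and arf7 NAA next.

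With NAA 10 of these 15 wall genes were lower in arf7 than in Col-0 and 0 higher, with a median of -1.4 on the log2 scale. Over all loci compared 14.1% were lower and 10.8% higher. The differences of the 10 ran from 2.22-fold in RHS13 (1.43 to 3.50) to 5.33-fold in XTH14 (3.79 to 7.65). Of the 15, 11 did not reach 1 CPM in both mock libraries and were compared through their NAA libraries. The list was also chosen with results known, so nothing is read from the count of 10. A weaker response in arf7 was met by XTH14, RHS10, AGP3 and AT4G26010, 4 of the 15. EXPA7, an expansin of root hairs with the element shown above, was below the level compared and had 12 reads in each NAA library and 0 in each mock library. CSLD3, a cellulose synthase-like protein of growing hairs, and SHV3 had between 1523 and 5695 reads in every library and met no fold asked for.

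**Figure D4:**
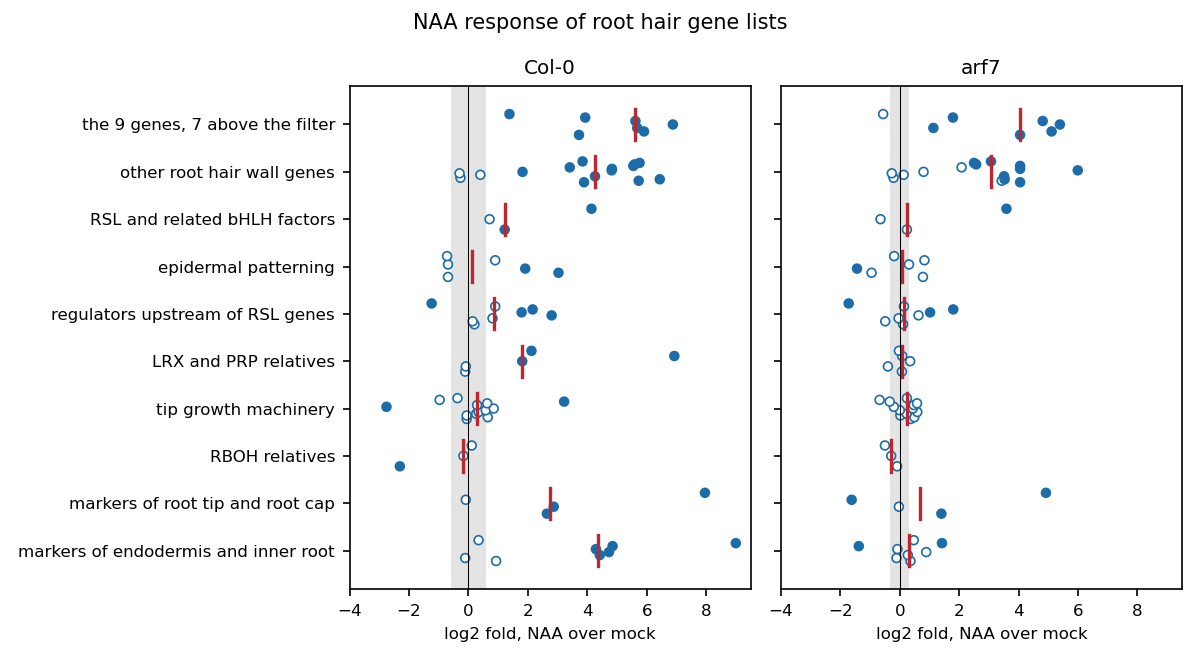
Log2 response to NAA in Col-0 and in arf7 of each gene compared, by list, with filled points for genes that met the fold and interval asked for, red lines for list medians and a grey band for the interquartile range of all loci compared. The medians of the 7 genes compared (5.62 in Col-0, 4.05 in arf7) and of the other root hair wall genes (4.26 and 3.07) lie high in both panels. In arf7 LRX2 lies at 1.13 and RHD2 at -0.56. The wall genes CSLD3, SHV3 and RHS2 lie near 0 in both panels. The relatives LRX and PRP and the endodermis markers have medians of 1.81 and 4.35 in Col-0 and of 0.07 and 0.32 in arf7.

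Of 20 genes of the general machinery of tip growth 13 were compared. With NAA 1 was higher and 1 lower in Col-0, where 28.2% of all loci differed, and 0 differed in arf7, where 8.23% did. The median log2 fold was 0.29 in Col-0 and 0.24 in arf7. In the smaller lists it was 1.22 and 0.24 for the bHLH relatives, 0.11 and 0.06 for patterning, 0.85 and 0.13 for the regulators that act on RSL genes and 1.81 and 0.07 for the LRX and PRP relatives. SYP123, a membrane fusion protein of root hairs, had 7 reads in Col-0 mock and 64 with NAA, and 15 and 12 in arf7, and was 9.88-fold higher with NAA in Col-0 (4.53 to 25.6). OXI1, a kinase that acts with reactive oxygen species, was 6.85-fold lower with NAA in Col-0 (5.12 to 9.33). FER, a receptor kinase required for hairs, had between 6044 and 7291 reads in every library.

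Among 7 relatives of RHD2, 3 were compared and, unlike RHD2, 0 were higher with NAA in Col-0. RBOHD, the oxidase of stress responses, had 5051 reads in Col-0 mock and 942 with NAA, and 4280 and 4121 in arf7. It was 4.96-fold lower with NAA in Col-0 (4.63 to 5.32), opposite to RHD2, and 1.06-fold lower in arf7 (1.02 to 1.11). RBOHF met no fold asked for. RBOHH and RBOHJ, the oxidases of pollen tubes, had 1 read each in all libraries together.

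Markers of other root tissues followed the genes in part. The 6 markers of root tip and root cap summed to 3.40 CPM in Col-0 mock and 31.8 with NAA, and to 3.18 and 5.53 CPM in arf7. Of these BRN1, a root cap factor, had 0, 115, 0 and 15 reads, PLT1 of the root stem cell niche 6, 37, 6 and 17, and WOX5 of the quiescent centre 15, 13, 13 and 4. WOX5 was thus lower with NAA in arf7 (3.33-fold, 1.03 to 14.0) and 1.07-fold lower in Col-0 (0.474 to 2.44). SMB of the root cap was at 0 in all libraries but Col-0 NAA, where it had 2 reads. The 9 markers of endodermis and inner root summed to 213, 1137, 196 and 225 CPM, and 5 of the 8 compared were higher and 0 lower with NAA in Col-0, against 1 higher and 1 lower in arf7. CASP1, a Casparian strip protein, had 105, 2083, 88 and 109 reads, and its relative CASP4 had 8, 227, 16 and 6 and was the one lower with NAA in arf7 (2.73-fold, 1.01 to 8.52). SHR and MYB36, factors that act in endodermis formation, met no fold asked for with NAA in either genotype, and ESB1 was below the level compared, with 2 to 6 reads.

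The 4 genes listed as markers of root uptake were not all uptake genes. TIP2;3, a root aquaporin, had 77 reads in Col-0 mock and 8564 with NAA, and 22 and 140 in arf7, and NRT2.1, a nitrate transporter, had 0, 34, 0 and 0. IRT1 was below the level compared, with 0, 8, 4 and 1 reads. TIP2;3, NRT2.1 and IRT1 each had most reads in Col-0 NAA. PYK10, a beta-glucosidase of roots and hypocotyls and not an uptake gene, went the other way with 293803, 52476, 232283 and 180191 reads. Like PRP2, CASP1 was high in Col-0 NAA and near its mock level in arf7 NAA. The part of these tissues in the levels of the hair genes was not tested.

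Beyond the lists, the loci whose pattern was nearest to the median of the 7 genes compared were RAB18, AZG2, PIRL8, GATA2 and DVL3. Likeness was the largest difference in any of the 4 libraries between centred log2 CPM profiles, and it was 0.65 for RAB18, 0.68 for AZG2, PIRL8 and GATA2, and 0.75 for DVL3. For the genes themselves this distance ran from 0.75 in PRP3 to 2.83 in RHD2. GATA2, a zinc finger factor, had 21 reads in Col-0 mock and 366 with NAA, and 6 and 59 in arf7. RAB18, a dehydrin, had 0, 25, 0 and 5, and AZG2, a purine transporter, 4, 67, 1 and 23. PIRL8 had 2, 59, 0 and 7 and DVL3 6, 76, 2 and 17.

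The authors' deposited table for NAA against mock in Col-0 listed 7 of the 9 genes, all but RSL2 and RSL4. The authors' deposited table for NAA against mock in arf7 listed LRX1 at a log2 ratio of 5.42, PRP1 at 7.86 and PRP3 at 4.93. RHD6, LRX2 and COW1, which met the fold and interval asked for here in arf7, were not in the authors' deposited table for that comparison. With NAA the authors' deposited table for arf7 against Col-0 listed 6 genes as lower in arf7, with log2 ratios from -4.6 for LRX2 to -1.15 for LRX1, and did not list RHD6. In mock the authors' deposited table for the genotypes listed 0 of the 9.

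A single model with a term for genotype and a term for treatment was fitted to all 4 libraries, with 1 residual degree of freedom, so that a difference in response enters the error. With the quasi-likelihood test of edgeR 0 of 17317 loci, 0%, had a genotype effect at an adjusted p of at most 0.05, and 578 had an unadjusted p under 0.05. PRP3 and RHD6 were among the latter, and each of the 7 genes compared had an adjusted p of 0.989 by edgeR. All 7 genes compared had a lower fitted level in arf7, from -0.67 in RHD2 to -2.69 in LRX2 on the log2 scale. The fitted level averages over the treatments. In mock alone 0 of the 7 met the fold and interval asked for between genotypes, and RHD2 was 1.24-fold higher in arf7 (0.929 to 1.65). The model also uses the NAA and mock values by which the genes were chosen, so nothing is read from its values for these genes. DESeq2 called 69 loci and limma 0, with 595 and 810 at an unadjusted p under 0.05, and neither called any of the 7, of which RHD6 had no adjusted p in DESeq2.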

How the data were processed

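Hypocotyl RNA of 4 libraries, 1 per genotype and treatment, was analysed. Per the file headers, the authors deposited for each transcript model a count of uniquely assigned reads, its length, the percent of it covered by reads and an RPKM value. The submitters' processing notes name the TAIR10 build. The aligner, the counter and any use of strand are not given in the sources used here, so reads of antisense or overlapping genes are not separated. The authors' deposited comparison tables give a log2 ratio, a p-value and an FDR of a test not given in the sources used here, and hold only models past a filter on both, while 16 per-sample columns in them were not used.

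Reads were summed per locus and scaled by TMM (edgeR 4.0.16, R 4.3.3). Of 23695 loci, 17317 reached a mean of 1 CPM and were compared. Folds carry exact conditional binomial (Clopper-Pearson) 95% intervals, response differences Wald intervals and single levels Poisson intervals. A count of 0 was set to 3 reads, and 0.5 was added before log2. PCR reads are not independent molecules, so intervals and floors cover counting error only. The additive model used edgeR, with DESeq2 1.42.0 and limma 3.58.1 as alternatives, and adjusted p-values over all loci (Benjamini-Hochberg). The scripts were tested on simulated data.

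Genes, lists, rules and alternatives were chosen with earlier results of these data known. Named are all 9 genes, per list and comparison up to 4 genes that met the rule by size, family relatives, further list genes as examples chosen after their values were seen, and the 5 loci with a symbol outside the lists that were nearest in profile. Of 106 list entries 97 matched a symbol, and the others appear by locus. Of the smaller lists, shoot apex markers summed to 4.28 to 10.0 CPM, guard cell markers to 3.68 to 14.7 and photosynthetic markers to 571 to 671. The latter sum hides a difference between its 2 genes. RBCS1A had 3322, 3500, 4140 and 4175 reads, whereas LHCB2.1 had 1602, 723, 69 and 59. LHCB2.1 was thus 22.9-fold lower in arf7 than in Col-0 in mock (18.0 to 29.6) and 13.4-fold lower with NAA (10.3 to 17.8). For upstream windows, 23502 of 23505 loci matched by tag overlapped the RefSeq TAIR10.1 gene of the same tag.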

Additional observations from a re-analysis of the deposited data

How the results depend on the processing

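No paired analysis was possible because the labels carry no replicate numbers and each group is 1 library, and for the same reason no replicate could be left out. Of 212 single folds of the 7 genes compared, with RSL2 and RSL4 not included, under other settings, 203 kept direction and side of the threshold, 9 no longer met the rule, all at a fold of at least 4, and 0 reversed. Of 47 counts of these genes 42 stayed within 1.5 times. With a mean of at least 5 CPM 4 genes were compared, and 4 were higher with NAA in Col-0, 3 higher in arf7 and 4 lower in arf7 with NAA; with a fold of at least 4, 3 were higher with NAA in arf7 and 2 lower in arf7 with NAA. Fewer genes compared and the stricter fold set these counts. Scaling by DESeq2 size factors or by library totals, no filter, the listed model with most reads and loci with 1 listed model changed none of them by over 1.5 times.

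Counts over all loci moved by over 1.5 times as follows. For arf7 against Col-0 in mock, 404 higher and 398 lower became 206 and 198 at 5 CPM, 892 and 930 at a fold of 1.5, and 66 and 85 at a fold of 4. With NAA, 1869 higher became 3185 at 1.5 and 585 at 4, and 2446 lower became 1535 at 5 CPM and 1102 at 4. For NAA in Col-0, 2626 higher became 1636 at 5 CPM and 1352 at 4, and 2265 lower became 3624 at 1.5 and 766 at 4. For NAA in arf7, 677 higher and 749 lower became 359 and 457 at 5 CPM, 1458 and 1610 at 1.5, and 205 and 129 at 4. For the response difference, 3260 weaker became 4939 at 1.5 and 1373 at 4, and 422 stronger became 245 at 5 CPM, 1068 at 1.5 and 59 at 4. The additive model called 0 loci with edgeR and 69 with DESeq2. Depth limits the folds of RHD6, RSL2, RSL4 and PRP1, since 1 read was worth 0.135 to 0.147 CPM and these genes had 0 to 2 reads in mock.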
